A study of Saccharomyces cerevisiae with 19 samples.

Results

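The structural mannoprotein genes of the yeast cell wall were followed through 19 sequencing libraries: CCW12, SED1, CWP1, CWP2, TIR1, PIR1, PIR3, HSP150, CIS3 and GAS1, chosen by name as genes for structural wall mannoproteins, 10 of the 5758 genes listed in the count tables. The libraries come from wild-type Saccharomyces cerevisiae BY4741, an a-mating-type laboratory strain that carries deletions in HIS3, LEU2, MET17 and URA3, the HIS3 one being partial. Ribosome profiling, which sequences the mRNA fragments that ribosomes protect from nuclease, was set beside mRNA-seq in a series about how randomized bases in the ligation and priming oligonucleotides affect footprint counts. All cultures grew in YPD from an OD600 of 0.02 to 0.4 and received cycloheximide, an inhibitor of elongation, for 1 min, and the drug was also in the lysis buffer at 100 μg/ml. Footprints of 28 to 32 nt came from monosomes after RNase I digestion.

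The footprint groups are DualLigation (n = 3 libraries) and, with 2 libraries each, Nonrandom, Nonrandom low, 4N, 4+3N and 4+3N low, and the mRNA-seq groups Nonrandom, 4N and 4+3N (n = 2 each). They share genotype, medium and drug and differ in library preparation; 4N and 4+3N name preparations with random bases (N), and the labels say nothing further about the oligonucleotides, about DualLigation or about low. Some deposited tables are named 3N and 4N where the sample titles give 4N and 4+3N, and the titles were followed, so these names rest on them. Nothing in the labels says that replicates are separate cultures, so p-values measure the spread between these libraries, which may be technical. Levels are given as CPM (counts scaled to a common library total), and between genes as TPM (which also divides by gene length). Read ratios of 2 genes within a library are the exception and are not divided by length.

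The yeast wall is a meshwork of glucan and chitin covered by an outer layer of heavily mannosylated proteins. Most of these travel through the secretory pathway with a glycosylphosphatidylinositol (GPI) anchor and are then linked through its remnant to β-1,6-glucan, while the Pir proteins, named for their internal repeats, carry no anchor and bind β-1,3-glucan directly. The proteins are made in bulk by growing cells, and several are interchangeable in part, so that loss of any single wall protein is usually tolerated.

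Among the GPI proteins, CCW12 (YLR110C, chromosome XII, 369697 to 370098 on the minus strand in R64) encodes a small, abundant wall protein important for wall stability and mating. SED1 (YDR077W, chromosome IV, 600793 to 601809, plus strand) encodes a large stress-induced wall glycoprotein. CWP2 (YKL096W-A, 259253 to 259531) and CWP1 (YKL096W, 261132 to 261851) lie next to each other on the plus strand of chromosome XI, 1600 bp apart, and encode mannoproteins of the lateral wall and of the birth scar. TIR1 (YER011W, chromosome V, 175248 to 176012, plus strand) encodes a serine- and alanine-rich mannoprotein known for its induction by cold and low oxygen. GAS1 (YMR307W, chromosome XIII, 887003 to 888682, plus strand) is also GPI-anchored, but its product is an enzyme, the β-1,3-glucanosyltransferase that elongates glucan chains at the cell surface.

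The 4 Pir genes among the 10 form neighbouring pairs. PIR1 (YKL164C, 141794 to 142819, minus strand) and PIR3 (YKL163W, 144401 to 145378, plus strand) are separated by 1581 bp on chromosome XI. HSP150 (YJL159W, 120449 to 121690, plus strand), also called PIR2, and CIS3 (YJL158C, 122265 to 122948, minus strand), also called PIR4, are separated by 574 bp on chromosome X. HSP150 is known for its heat-induced, secreted product. How reads that align to more than 1 gene were counted is not given in the sources used here, so the split of reads among genes with like repeats is uncertain, and no annotated gene overlaps any of the 10.

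Counted reads ran from 827353 to 13478946 per library. Read totals of the low libraries (827353 to 2667016) were all below those of the other footprint libraries (6735945 to 13478946), and the mRNA-seq libraries held 1838817 to 3497303. Replicates varied by 5.09% to 8.01% (biological coefficient of variation in edgeR) in every group but DualLigation, where the value was 32.1%. In DualLigation replicates 2 and 3, YEF3, which encodes translation elongation factor 3, held 9.23% and 9.78% of reads against 2.58% in replicate 1 and at most 1.40% in any other footprint library. The members' changes in DualLigation are therefore also given for replicate 1 alone, while the counts of other wall genes rest on all 3 libraries. STE2, the pheromone receptor of a cells, had group means from 164 to 791 CPM. Those of the other a-cell genes MFA1, MFA2, BAR1, STE6 and ASG7 ran from 5.19 CPM (MFA1 in DualLigation) to 374 CPM (STE6 in Nonrandom mRNA-seq). Those of the alpha-cell genes STE3, MF(ALPHA)1, MF(ALPHA)2 and AFB1 ran from 0 CPM (MF(ALPHA)1 in DualLigation) to 21.9 CPM (AFB1 in Nonrandom footprints), so these ranges overlapped. LEU2 had 1 read in all libraries together, and HIS3 had group means from 63.9 to 92.4 CPM. MET17 and URA3 are not among the genes listed.

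Together the 10 genes took 2.27% and 2.13% of footprint reads for Nonrandom, 2.25% and 1.89% for 4N, and 1.97% and 1.61% for 4+3N. In Nonrandom low they took 2.42% and 2.13%, and in 4+3N low 1.75% and 1.57%. In DualLigation they took 1.83%, 1.16% and 0.921% (replicates 1, 2 and 3), of which only replicates 2 and 3 lay below every other library. In mRNA-seq the share was 1.49% to 1.77%. In bulk cultures such as these, fewer cells that express a gene and less RNA of it per cell cannot be told apart.

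CCW12 was the most abundant of the 10 by mean TPM in every group outside DualLigation. Its footprint level was 11377 and 10208 CPM for Nonrandom, 11330.5 and 8648 CPM for 4N, and 9540.2 and 7144 CPM for 4+3N. In the low libraries it was 12866 and 11271 CPM (Nonrandom low) and 8696 and 7515 CPM (4+3N low). In DualLigation it was 3608, 1629 and 1173 CPM, below every other footprint library, and in mRNA-seq it lay between 8588 and 10055 CPM. Replicates outside DualLigation differed by up to 1.34-fold, so the ranges of Nonrandom, 4N and 4+3N overlapped pairwise, except that both 4+3N libraries lay below both Nonrandom libraries.

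SED1 values were highest in DualLigation and, among the standard preparations, lowest in 4+3N. It had 1759 and 1779 CPM for Nonrandom, 1609 and 1369 CPM for 4N, and 1303 and 1036 CPM for 4+3N, and these 3 ranges did not overlap. In Nonrandom low it had 1600.1 and 1262 CPM, and in 4+3N low 919 and 832 CPM. In DualLigation it had 3651, 3498 and 1984 CPM, above every other footprint library. In mRNA-seq SED1 was the least even of the well-counted genes between replicates, with 1094 and 682 CPM for Nonrandom and 1006 and 733 CPM for 4N, against 802 and 797 CPM for 4+3N.

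CWP2 was steady in the standard preparations, with 1847 and 2008 CPM for Nonrandom, 1816 and 1881 CPM for 4N, and 1649 and 1667 CPM for 4+3N. It had 2299.7 and 2174 CPM in Nonrandom low and 1685 and 1604 CPM in 4+3N low. The DualLigation libraries disagreed, with 4491 CPM in replicate 1 but 1614 and 1053 CPM in replicates 2 and 3. Its neighbour CWP1 ran from 218 to 241 CPM in the 6 standard footprint libraries, 208 to 266 CPM in the low ones, and 162, 178 and 123 CPM in DualLigation. TIR1 ran from 118 to 139 CPM in the standard libraries and 108 to 136 CPM in the low ones, with 97.1, 76.6 and 36.3 CPM in DualLigation.

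GAS1 varied little among the standard and low libraries. It had 2341 and 2407 CPM for Nonrandom, 2259.9 and 2410.3 CPM for 4N, and 2193 and 2266 CPM for 4+3N. It had 2364 and 2358 CPM in Nonrandom low and 2113 and 2122 CPM in 4+3N low. The 3 DualLigation libraries, with 3289, 2929.6 and 3394 CPM, lay above all others, and its mRNA level lay between 1736 and 2022 CPM.

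Of the Pir genes, HSP150 had 2720.5 and 2367 CPM for Nonrandom, 2763 and 2170.1 CPM for 4N, 2511 and 1880.1 CPM for 4+3N, and 1301, 755 and 653 CPM in DualLigation. CIS3 had 1478 and 1419.9 CPM for Nonrandom, 1498 and 1276 CPM for 4N, 1352 and 1119.8 CPM for 4+3N, and 1396, 736 and 646 CPM in DualLigation. PIR1 had 828 and 762 CPM for Nonrandom, 839 and 747 CPM for 4N, 779 and 662 CPM for 4+3N, and 315, 149 and 146 CPM in DualLigation. For HSP150 and PIR1 every DualLigation library lay below every other footprint library, while for CIS3 the ranges overlapped through replicate 1.

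PIR3 was almost without footprints. It had 4 and 1 reads for Nonrandom, 8 and 5 for 4N, 4 and 4 for 4+3N, 1 and 3 in Nonrandom low, 1 and 0 in 4+3N low, and 4, 0 and 0 in DualLigation, 35 reads in all 13 libraries. In the smaller mRNA-seq libraries it had 30 and 26 reads for Nonrandom, 22 and 6 for 4N, and 21 and 19 for 4+3N, 124 in all. Pooled, this is 0.463 CPM (exact 95% Poisson interval 0.302 to 0.678) over the 6 standard footprint libraries and 8.0 CPM (6.65 to 9.54) in mRNA-seq, intervals that cover counting error only. Per coding length, PIR3 stood at 3.20 to 13.3 TPM in the mRNA-seq libraries and its neighbour PIR1 at 445 to 537 TPM.

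**Figure D1:**
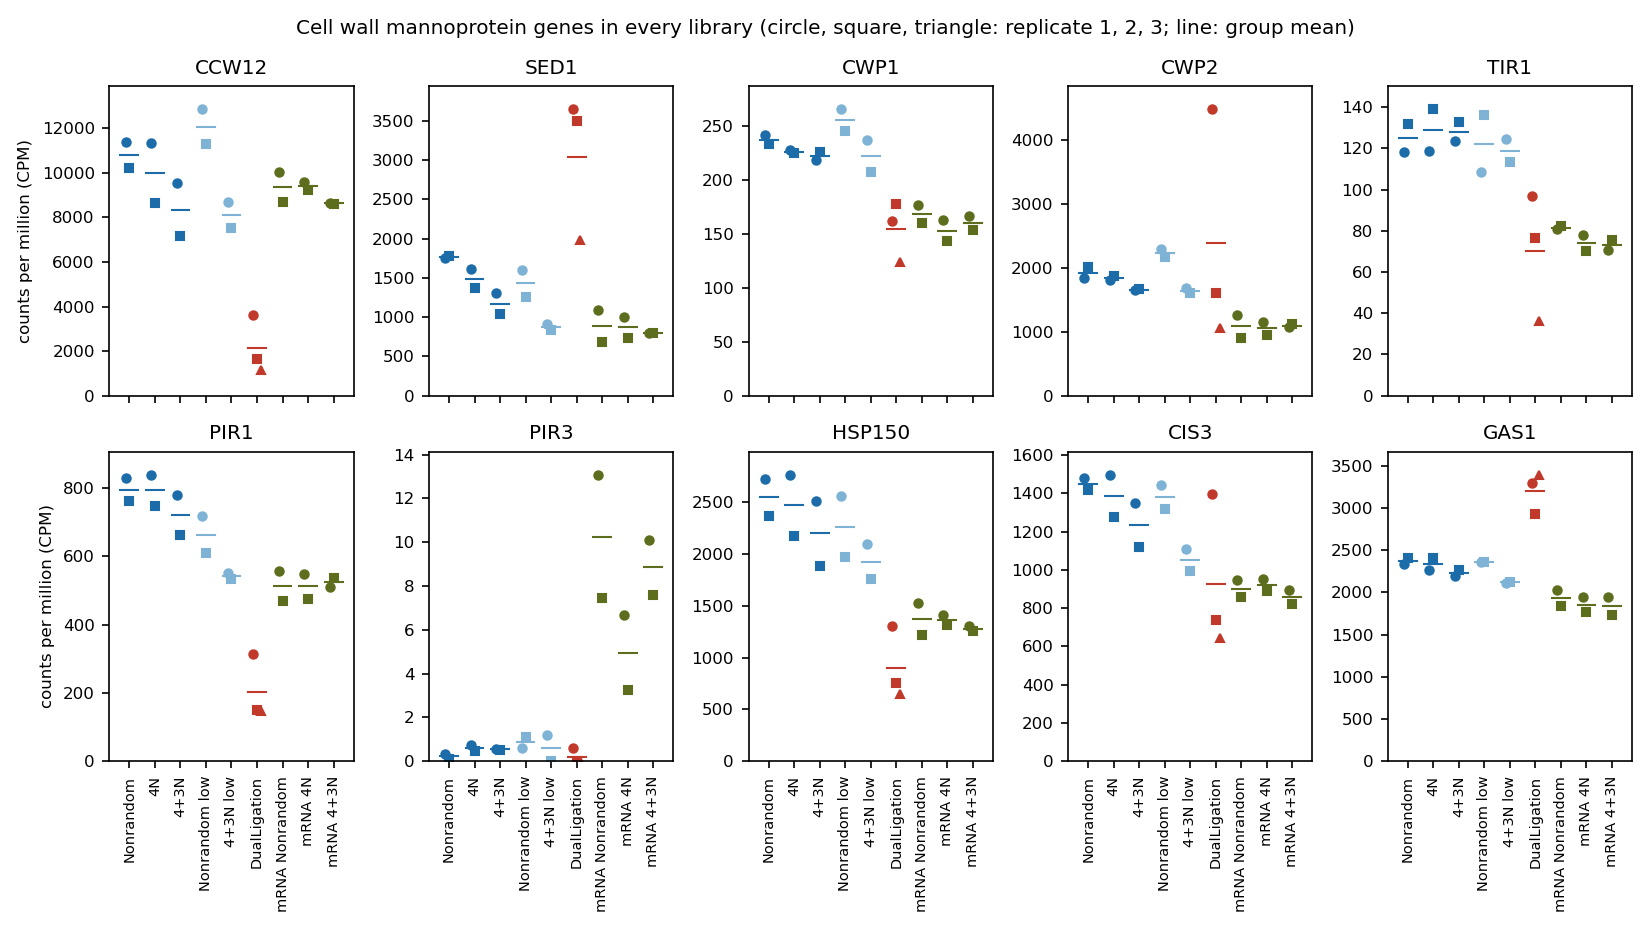
CPM (vertical axes, linear from 0, a different scale for each gene) of the 10 genes in each of the 19 libraries; each symbol is a library, each line a group mean, with standard footprints in dark blue, low footprints in light blue, DualLigation in red and mRNA-seq in green. For CCW12, CWP1, TIR1, PIR1 and HSP150 every DualLigation value lies below all other footprint values, and for SED1 and GAS1 above them. PIR3 is near 0 in every footprint library.

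Per unit of coding length the order was dominated by CCW12. In Nonrandom footprints CCW12 stood at 26133 ± 1882 TPM (SD, n = 2), the highest of 5754 genes, followed among the 10 by CWP2 at 6728 ± 427 TPM. CIS3 (2063 ± 49.5 TPM) and HSP150 (1994 ± 187 TPM) came next and did not differ beyond their spread. SED1 (1693 ± 21.2 TPM), GAS1 (1376 ± 33.3 TPM), PIR1 (754 ± 40.8 TPM), CWP1 (321 ± 6.27 TPM) and TIR1 (159 ± 12.9 TPM) followed without overlap, and PIR3 was last at 0.227 ± 0.16 TPM. CCW12 was also first of all genes by TPM in 4N and 4+3N footprints and in each mRNA-seq group, and had rank 3 in Nonrandom low and 5 in 4+3N low. Of the lengths used for all genes, 96.5% were multiples of 3, so some were not coding lengths. Ranks by TPM among all genes are uncertain to that extent. By CPM, which does not divide by length, CCW12 had rank 9 in Nonrandom footprints, 11 in 4N and 4+3N footprints, and 9 in each mRNA-seq group.

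SED1 and GAS1 exchanged places between preparations. SED1 lay above GAS1 in Nonrandom, overlapped it in 4N, and lay below it in 4+3N, where SED1 had 1115 ± 172 TPM and GAS1 had 1289 ± 39.0 TPM. In DualLigation CWP2 (8815 ± 6195 TPM, n = 3) had the highest mean of the 10, but its range overlapped that of CCW12 (5522 ± 2933 TPM), and CCW12 had rank 27 among all genes there. In mRNA-seq GAS1 stood level with HSP150, where in Nonrandom footprints HSP150 stood above GAS1.

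Setting 4N and 4+3N beside Nonrandom addresses whether random bases change the footprint counts of these genes. SED1 was lowest in 4+3N, with a log2 fold change of −0.57 (SE 0.13, edgeR adjusted p = 0.231, both 4+3N libraries below both Nonrandom libraries), CCW12 had −0.34 (SE 0.18, adjusted p = 0.561) and CWP2 −0.19 (SE 0.07, adjusted p = 0.462). No gene of the 9 that were tested passed the threshold of 0.05 on the adjusted p, where 0.304% of the 5261 genes tested did (16, with 510 at an unadjusted p under 0.05); PIR3 had too few reads to be tested. The fold change was below 0 for 8 of the 9 and 0.07 for TIR1, with a median of −0.18 against −0.001 over all genes tested. This sign rests on which of the lists of counts deposited for Nonrandom replicate 1 is used: with the first list the median of the 9 was 0.63, and in 4N against Nonrandom 0.76 in place of −0.04, with no gene of the 9 past the threshold in either. In DESeq2 SED1 alone of the 9 passed (log2 fold change −0.56, SE 0.13, adjusted p = 0.00723), and in edgeR it passed without 4+3N replicate 1 (−0.79, adjusted p = 0.0203).

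Equal replicate numbers deviated together in these 3 groups, and with the replicate number as a block SED1 fell in 4+3N by 0.58 on the log2 scale (SE 0.06, edgeR adjusted p = 2.23e-07). CCW12 fell by 0.36 (SE 0.05, adjusted p = 2.54e-05), CIS3 by 0.21 (SE 0.04, adjusted p = 0.0042), HSP150 by 0.20 (SE 0.04, adjusted p = 0.00533) and CWP2 by 0.19 (SE 0.04, adjusted p = 0.00204). These 5 of 9 stand beside 3.74% of all genes tested that fell in the same fit (197, with 293 that rose). PIR1 (−0.12), CWP1, GAS1 and TIR1 did not pass with the block either. So the size of the changes did not depend on the block, and the call did. The block was run only with the list of Nonrandom replicate 1 used throughout, which was taken for its agreement with replicate 2. Blocked calls against Nonrandom rest on that choice and on a pairing read from the same libraries.

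In 4N against Nonrandom the changes were smaller, and none of the 9 passed (0.133% of genes did, 7, with 152 at an unadjusted p under 0.05, and none of the 9 passed in DESeq2 either). SED1 had −0.22 (SE 0.13, edgeR adjusted p = 1), and the other 8 lay between −0.09 for CCW12 and 0.07 for TIR1. With the replicate block SED1 fell by 0.23 (SE 0.05, adjusted p = 0.0325), where 0.076% of genes fell. Between 4+3N and 4N, where 0.114% of genes passed (6, with 130 at an unadjusted p under 0.05), none of the 9 did in edgeR or DESeq2. There the block gave a fall of 0.35 for SED1 (SE 0.06, adjusted p = 0.00114) and of 0.26 for CCW12 (SE 0.05, adjusted p = 0.00403), beside 0.19% of genes. The comparisons share libraries and are not independent.

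**Figure D2:**
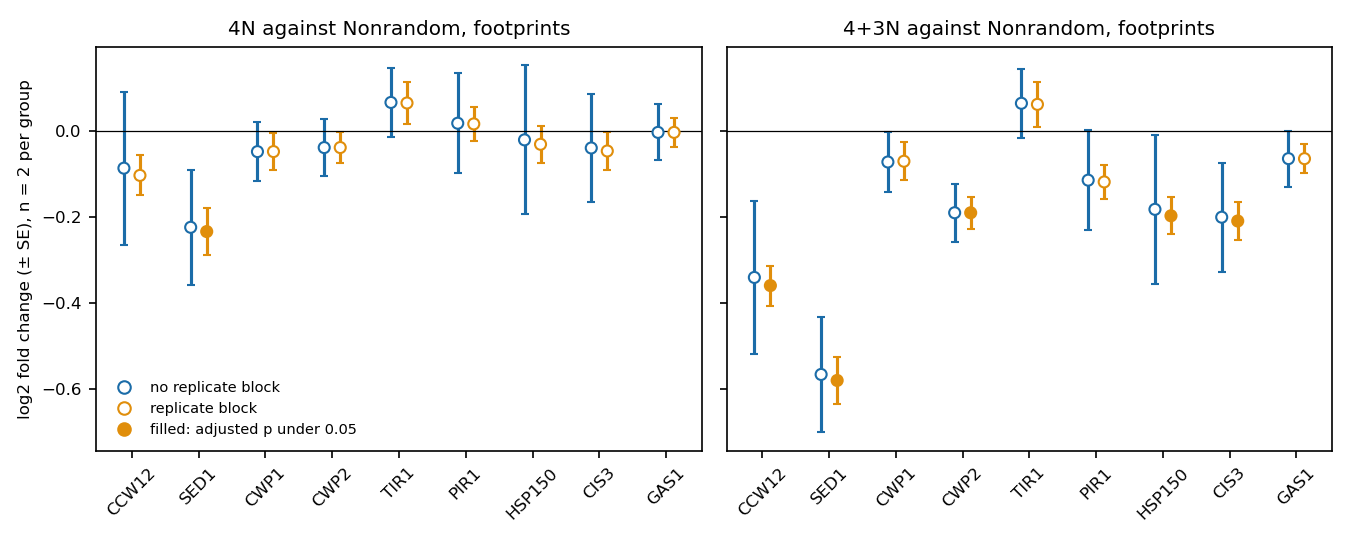
Log2 fold change in footprints (vertical axis, bars ± SE, n = 2 libraries per group) of 9 genes in 4N (left) and 4+3N (right) against Nonrandom, in blue without and in orange with the replicate number as a block; filled symbols passed an adjusted p of 0.05. The values are nearly the same in both fits, with SED1 lowest at −0.57 and −0.58 in 4+3N, while the errors are smaller with the block.

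Some of these genes differed in a like way between equally numbered libraries. CCW12, HSP150, PIR1 and CIS3 were higher in replicate 1 than in replicate 2 in 5 of 5 footprint groups other than DualLigation, by 1.11- to 1.34-fold for CCW12 and 1.15- to 1.34-fold for HSP150. SED1 and CWP1 were higher in replicate 1 in 4 of 5 groups, CWP2 in 2 of 5, and GAS1 and TIR1 in 1 of 5. Over all genes with at least 50 counts, 31.1% to 45.9% were higher in replicate 1 in these groups. The cause of the replicate difference was not tested.

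Of the other wall genes, 1 passed in 4+3N against Nonrandom without the block: DSE2, a daughter-cell-specific wall protein, fell by 0.41 on the log2 scale (SE 0.07, edgeR adjusted p = 0.0456). The DSE2 fall did not pass with library totals, with the first list of Nonrandom replicate 1, without near-identical gene copies or with DualLigation in the fit. There, and when any library but 4+3N replicate 1 was left out, no gene passed as lower. The 20 tested genes for other wall and surface mannoproteins, most of them GPI-anchored, had a median of −0.25, and 1 fell and 0 rose. None of the 2 tested GAS relatives, 16 wall crosslinking and remodelling enzymes, 19 glucan and chitin synthesis genes, 23 mannosylation genes, 25 GPI anchor genes or 15 wall integrity genes passed, and their medians lay between −0.15 and −0.02. In 4N none of these lists had a gene that passed.

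DualLigation against the mean of Nonrandom, 4N and 4+3N split the 10 genes. SED1 rose by 1.72 on the log2 scale, 3.29-fold (SE 0.18, edgeR adjusted p = 7.26e-05), GAS1 by 1.15 (SE 0.12, adjusted p = 6.52e-05) and CWP2 by 0.98 (SE 0.31, adjusted p = 0.0226). CCW12 fell by 1.58 (SE 0.29, adjusted p = 0.00163), to 2.99-fold lower, PIR1 by 1.31 (SE 0.20, adjusted p = 0.000607) and HSP150 by 0.78 (SE 0.19, adjusted p = 0.00743). CWP1 (0.11), CIS3 (0.07) and TIR1 (−0.23) did not pass. The fit took a single spread per gene from all its groups, which varied by 32.1% in DualLigation and 5.67% to 7.28% in the others. The SEs and p-values of this comparison can therefore understate the spread among the DualLigation libraries. The 3 that rose and 3 that fell, of 9 tested, stand beside 33.1% of 5300 genes that rose and 32.6% that fell (65.7% in all), so a call in this comparison was the usual case. PIR3, with 4 reads in 3 libraries, was not tested.

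The scaling set part of these values. The tests used TMM factors, which centre the bulk of genes; scaling to library totals instead moved the median of all genes by −0.67 and the share of higher calls from 50.4% to 23.9%. Under totals SED1 (1.07, SE 0.20, edgeR adjusted p = 0.00142) and GAS1 (0.47, SE 0.12, adjusted p = 0.0063) still rose, and CCW12 (−2.18), PIR1 (−1.92) and HSP150 (−1.41) still fell. CWP2 no longer passed (0.40, adjusted p = 0.363), while CWP1, slightly above 0 under TMM, fell by 0.57 (adjusted p = 0.0065) and TIR1 fell by 0.87 (adjusted p = 0.0185).

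The DualLigation libraries also differed among themselves. With replicate 1 alone SED1 had 1.75, GAS1 0.93 and CWP2 1.73, CCW12 −1.0, PIR1 −0.87, CWP1 −0.08, TIR1 0.03 and HSP150 −0.46, which no longer passed (edgeR adjusted p = 0.0567), while CIS3 rose by 0.46 (adjusted p = 0.0108); the lone library is assumed to vary like the other groups. Without replicate 1 CWP2 had 0.35 (adjusted p = 0.0461) and CCW12 −2.00. CWP2 also missed the threshold narrowly without Nonrandom replicate 1 (0.96, adjusted p = 0.0511) and without 4+3N replicate 2 (0.97, adjusted p = 0.0501). The signs of SED1, GAS1, CWP2, CCW12, PIR1 and HSP150 were the same in every alternative run, but with the first list of Nonrandom replicate 1 the changes of CCW12 (−1.23, edgeR adjusted p = 0.252), CWP2 (1.26, adjusted p = 0.13), PIR1 (−1.05, adjusted p = 0.0501) and HSP150 (−0.48, adjusted p = 0.443) no longer passed.

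**Figure D3:**
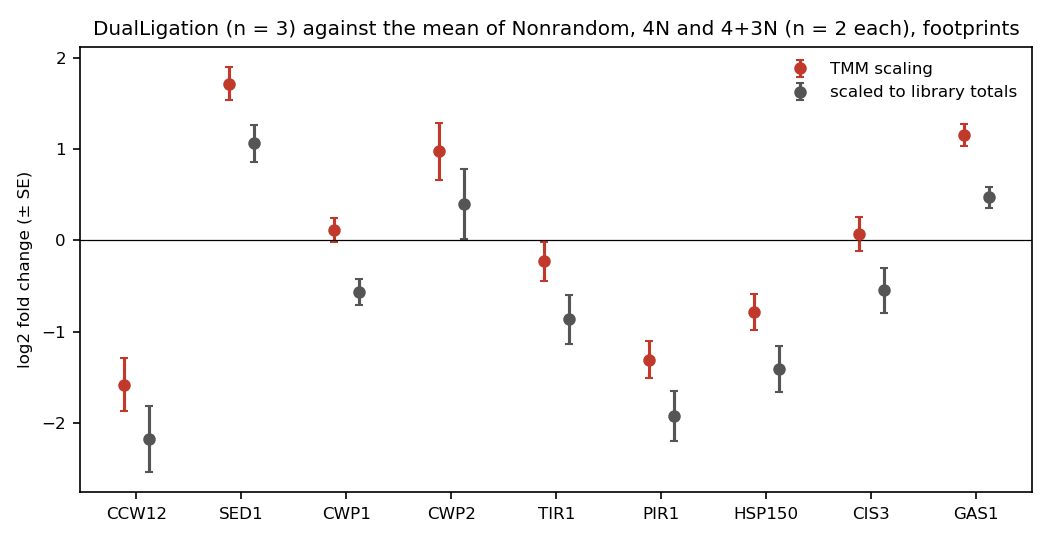
Log2 fold change in footprints (vertical axis, bars ± SE) of 9 genes in DualLigation (n = 3) against the mean of Nonrandom, 4N and 4+3N (n = 2 each), with TMM scaling in red and scaling to library totals in grey. SED1 and GAS1 lie above 0 and CCW12, PIR1 and HSP150 below 0 under both scalings, and CWP1 and CIS3 change sides.

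Ratios of 2 genes within a library need no scaling. They are not divided by length here, so they compare libraries and not the levels of the 2 genes. Those given here were chosen after the calls were seen and share CCW12, which fell, as the denominator, so they are a description and do not show which gene of a pair changed. SED1 had 1.01 to 2.15 reads per CCW12 read in the 3 DualLigation libraries, against 0.137 to 0.174 in the 6 standard footprint libraries, 0.106 to 0.124 in the 4 low libraries and 0.0782 to 0.109 in mRNA-seq. GAS1 had 0.912 to 2.89 reads per CCW12 read in DualLigation and 0.199 to 0.317 in the standard libraries. CWP2 had 0.898 to 1.24 against 0.160 to 0.233, although its own level in DualLigation replicates 2 and 3 (1614 and 1053 CPM) lay below the standard libraries. None of these ranges overlapped between DualLigation and the other footprint libraries.

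Read ratios of neighbouring genes were also taken. The HSP150 to CIS3 read ratio was 0.932 to 1.02 in DualLigation against 1.67 to 1.86 in the standard footprint libraries, without overlap, and 1.42 to 1.61 in mRNA-seq. The CWP2 to CWP1 ratio was 27.8 in DualLigation replicate 1, but 8.53 and 9.09 in the other 2 libraries, close to the 7.39 to 8.61 of the standard libraries.

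**Figure D4:**
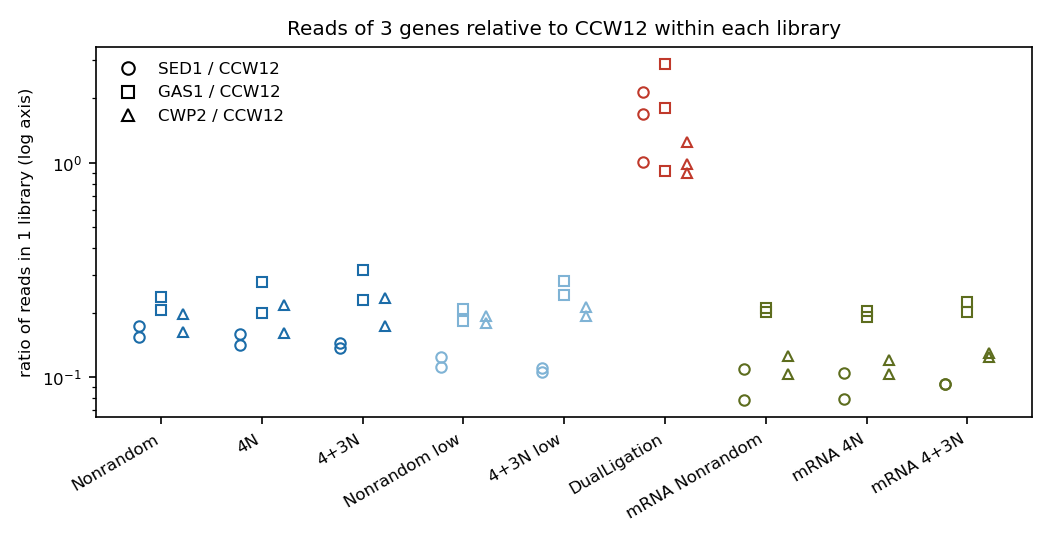
Reads of SED1 (circles), GAS1 (squares) and CWP2 (triangles) divided by the reads of CCW12 in the same library (vertical log axis) for each of the 19 libraries by group, coloured as in the plot of all 10 genes. In DualLigation the ratios lie between 0.898 and 2.89, and in every other library they lie below 0.32.

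Genes that build or decorate the wall were also called in both directions in DualLigation. Of 22 tested genes for other wall and surface mannoproteins 4 rose and 6 fell (median −0.27), among them AGA1, the anchor subunit of the a-agglutinin, which fell by 2.99 (SE 0.20, edgeR adjusted p = 1.02e-05). Of 16 crosslinking and remodelling enzymes 5 rose and 5 fell, and SCW4, a wall glucanase-like protein, rose by 3.75 (SE 0.32, adjusted p = 2.86e-05). Of 19 glucan and chitin synthesis genes 6 rose and 7 fell, with the chitin synthase gene CHS3 up by 2.07 (SE 0.12, adjusted p = 5.62e-06). Of 23 mannosylation genes 11 rose and 9 fell, with VRG4, the Golgi GDP-mannose transporter, up by 3.52 (SE 0.10, adjusted p = 2.75e-07). Of 25 GPI anchor genes 4 rose and 11 fell (median −0.43), and of 16 wall integrity genes 1 rose and 8 fell (median −0.45). The median over all genes tested was −0.05, and 33.1% of all genes rose and 32.6% fell. Whether any list departs from these shares was not tested.

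Low against standard footprints moved none of the 9 tested genes past the threshold in DESeq2 or, with TMM factors and without a replicate block, in edgeR. In Nonrandom low, where 1.45% of 5174 genes passed (75, with 483 at an unadjusted p under 0.05), CWP2 had 0.28 (SE 0.08, edgeR adjusted p = 0.158), CCW12 0.22 (SE 0.13, adjusted p = 0.645) and SED1 −0.24 (SE 0.13, adjusted p = 0.588). In 4+3N low, where 0.734% passed (38, with 551 at an unadjusted p under 0.05), SED1 had −0.31 (SE 0.13, adjusted p = 0.395) and PIR1 −0.30 (SE 0.12, adjusted p = 0.355), and both low libraries lay below both standard ones for each. The medians of the 9 were 0.05 and −0.0043. PIR1 had 716 and 609.7 CPM in Nonrandom low and 549.9 and 532 CPM in 4+3N low. The difference between the 2 low effects was within −0.18 and 0.02 for all 9, and none passed in edgeR or DESeq2 (0.232% of genes did, 12, with 261 at an unadjusted p under 0.05).

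In mRNA-seq none of the 10 genes passed between 4N and Nonrandom (0.185% of 5415 genes did, 10, with 201 whose unadjusted p was under 0.05), between 4+3N and Nonrandom (0.222%, 12, with 197) or between 4+3N and 4N (0%, 0, with 132), and the same held in DESeq2 and with the replicate block. SED1 had −0.18 (SE 0.16, 95% interval −0.50 to 0.13) in 4+3N against Nonrandom. CCW12 had −0.16 (SE 0.10, interval −0.35 to 0.03), and GAS1 −0.11 (SE 0.09). PIR3 had −0.85 (SE 0.38, edgeR adjusted p = 1) in 4N against Nonrandom, on 22 and 6 against 30 and 26 reads.

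Footprints relative to mRNA, averaged over Nonrandom, 4N and 4+3N, were above the average gene for 9 of the 10. In CPM, the ratio of footprints to mRNA (Nonrandom, then 4N, then 4+3N) was 1.99, 1.71 and 1.46 for SED1, 1.86, 1.81 and 1.72 for HSP150, and 1.78, 1.76 and 1.51 for CWP2. For CCW12 it was 1.15, 1.06 and 0.967, and for GAS1 1.23, 1.26 and 1.21. The other 4 well-counted genes lay between 1.38 and 1.75. CCW12, first of all genes by TPM in both assays of these 3 preparations, had close to the same share of reads in each. Its footprint and mRNA libraries overlapped in CPM, as did those of SED1.

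In the test, HSP150 had a log2 ratio of 1.40 (SE 0.09, edgeR adjusted p = 1.70e-11), SED1 1.33 (SE 0.10, adjusted p = 2.48e-10), CWP2 1.30 (SE 0.07, adjusted p = 8.73e-13) and TIR1 1.28 (SE 0.06, adjusted p = 8.37e-14). CIS3 (1.15), PIR1 (1.13), CWP1 (1.06), GAS1 (0.85) and CCW12 (0.63, SE 0.09, adjusted p = 1.12e-06) were lower but also passed. These 9 of 10 higher stand beside 40.2% of 5523 genes that were higher, in a comparison in which 84.7% passed in either direction, and the median of the 10 was 1.14 against −0.04 over all genes. With library totals the median of all genes shifted by −0.55 and the share of higher calls fell from 47.5% to 19.9%, where 8 of the 10 remained higher, from 0.30 for GAS1 to 0.85 for HSP150, and CCW12 had 0.08 (adjusted p = 0.264).

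PIR3 alone of the 10 was lower in footprints, with a log2 ratio of −3.54 (SE 0.30, edgeR adjusted p = 1.85e-09). It passed the filter on low counts only through its mRNA-seq reads, so that it had to differ and the fold is a description. In pooled reads its footprint to mRNA ratio was 0.0579 (exact 95% interval 0.0364 to 0.0888, counting error only). By preparation the ratio stood at 0.0223 for Nonrandom, 0.123 for 4N and 0.062 for 4+3N, resting on 5, 13 and 8 footprint reads.

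**Figure D5:**
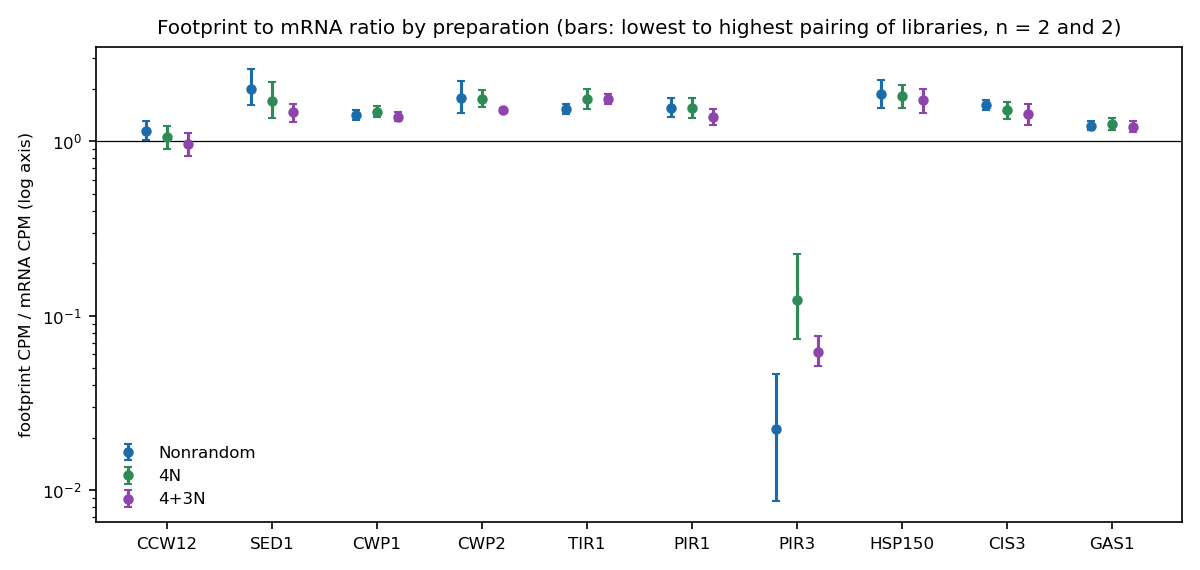
Footprint CPM over mRNA CPM (vertical log axis, line at 1) of the 10 genes in Nonrandom (blue), 4N (green) and 4+3N (purple); symbols are ratios of group means and bars run from the lowest to the highest pairing of 2 footprint with 2 mRNA libraries. CCW12 lies near 1, PIR3 between 0.0223 and 0.123, and the other 8 between 1.21 and 1.99.

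The ratio did not change with the preparation beyond the error for any of the 10 in edgeR or DESeq2 (0% of genes passed for 4N minus Nonrandom, 0 with 173 at an unadjusted p under 0.05 and 2 in DESeq2, and 0.0543% for 4+3N minus Nonrandom, 3 with 226). SED1 had −0.38 in 4+3N minus Nonrandom (SE 0.24, 95% interval −0.85 to 0.09, edgeR adjusted p = 0.977), so a fall as large as its footprint change lies within the interval. CCW12 had −0.18 (interval −0.59 to 0.23) and TIR1 0.26 (interval −0.01 to 0.53).

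Among the other wall genes the ratio was mixed, beside 40.2% of all genes that were higher and 44.5% that were lower. Of 16 crosslinking and remodelling enzymes 12 were higher and 3 lower (median 0.50), led by SIM1, a wall-associated SUN family protein, with 1.60 (SE 0.05, edgeR adjusted p = 2.06e-15). Of 29 other wall and surface mannoproteins 15 were higher and 13 lower, but 9 of the 13 passed the filter on low counts only through mRNA-seq reads and so had to come out lower. Of the 20 that also passed in footprints alone, 15 were higher and 4 lower, and CCW14, an inner-wall protein, had 1.19 (SE 0.06, adjusted p = 7.76e-13). DAN4, a mannoprotein of anaerobic cells, is one of the 9, with 10 footprint and 282 mRNA reads in 6 libraries each. Of 19 glucan and chitin synthesis genes 8 were higher and 7 lower (median 0.10). FKS1, the main glucan synthase subunit, had 1.28 (SE 0.05, edgeR adjusted p = 8.83e-15). FKS3 had −3.95 (SE 0.18, edgeR adjusted p = 2.27e-13), with 63 footprint and 374 mRNA reads. Of 23 mannosylation genes 10 were higher and 8 lower (median 0.10). Of 25 GPI anchor genes 15 were lower and 6 higher (median −0.27), and of 16 wall integrity genes 11 were lower, 1 of them through the filter in the same way, and 4 higher (median −0.38).

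Over the 13 footprint libraries, the genes whose log2 CPM followed SED1 most closely among 5289 were RRP42 (Pearson r = 0.97), GET2 (0.97) and SND1 (0.96). For CCW12 they were RPL30 (0.99), SCW10 (0.98) and CLN1 (0.98). All points share the 3 DualLigation libraries, which stand apart, and the values describe these libraries only.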

How the data were processed

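The authors deposited a table of raw read counts by gene from each library. CASAVA 1.8, Bowtie 1.0.0 and sacCer3 are named in the submitters' processing notes; gene assignment, strand and multiply aligned reads are not given in the sources used here. Genes absent from a table were set to 0. One table, Nonrandom footprint replicate 1, lists 5559 genes a second time with other counts; the second list (total 11656814) was taken for its higher correlation with replicate 2 (r = 0.997, against 0.959 for the first), so the agreement of these replicates is no independent measure. Of 5758 identifiers 5754 matched RefSeq R64, which gave names, positions and lengths.

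Counts were filtered with filterByExpr, scaled by TMM and tested by two-sided quasi-likelihood tests in edgeR 4.0.16 (R 4.3.3) over all genes, at a Benjamini-Hochberg adjusted p of 0.05; each SE is |log2 fold change| divided by √F. Fits held the 3 standard footprint groups, these with DualLigation, Nonrandom and 4+3N with their low groups, mRNA-seq alone, and footprints with mRNA-seq. DESeq2 1.42.0, a replicate block, RLE factors, no filter, the first list, leaving out near-identical copies or each library and, chosen after seeing the data, library totals and DualLigation replicate 1 alone were alternatives. Residuals of equally numbered libraries correlated at 0.232 to 0.399 among the standard footprint groups and 0.107 to 0.251 in mRNA-seq (3 of 3 pairs each above 0.1). These libraries were taken as paired only in the fits with the replicate block, and the main tests held no block. Replicate numbers follow the sample titles; for 1 of the 4+3N footprint libraries, titled replicate 2, another label gives replicate 1, so the block rests on the title. The tests without the block were checked on simulated data with 1 spread per gene in all groups and no replicate effect. That check does not cover the wider spread in DualLigation or the block. Named were the 10 members, up to 2 genes per wall list and comparison with the smallest p, the 3 genes most like SED1 and CCW12, and marker genes. YEF3 was named after its values were seen. Members and lists were chosen with earlier results of these data known.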

Additional observations from a re-analysis of the deposited data

How the results depend on the processing

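Of 1827 values of single members under an alternative, 1620 kept direction and side of the threshold, and 176 that had not passed changed sign. The count of members that passed in 4+3N against Nonrandom footprints was 0, but 1 in DESeq2 (SED1), 5 with the replicate block, and 0 to 1 when each library was left out (1 without 4+3N replicate 1). The replicate block gave 1 for 4N against Nonrandom and 2 for 4+3N against 4N; over all genes it moved the counts from 7 to 59, from 16 to 490 and from 6 to 32. In Nonrandom low the block gave 4 members (CCW12 0.22 and CWP2 0.28 higher, SED1 −0.26 and PIR1 −0.21 lower) and in 4+3N low 2 (SED1 −0.29, PIR1 −0.28), with 199 genes in place of 75 and 135 in place of 38, and 51 in place of 12 for the difference; there 3 of 6 pairs of equal numbers correlated above 0.1 over all genes and 5 of 6 over genes above 20 CPM, so not every pair did and the numbers were not taken as pairing these libraries. Library totals gave 1 in 4+3N low (PIR1, −0.41, edgeR adjusted p = 0.0416). The block changed no call of a member in mRNA-seq, the ratios or DualLigation, though all genes that passed went from 10 to 16 and 0 to 3 in mRNA-seq, and from 3 to 5 in the change of ratio. In DualLigation 6 members passed, 5 to 6 when each library was left out, 7 with library totals, where CWP1 turned to −0.57, and 2 (SED1, GAS1) with the first-listed counts of Nonrandom replicate 1; with those counts 8 of the 10 ratios passed, without CCW12 (0.29) and GAS1 (0.63). Over all genes, in the order of 4N against Nonrandom, 4+3N against Nonrandom and 4+3N against 4N, DESeq2 gave 11, 27 and 9, the fit with DualLigation 1, 2 and 0, and the fit without near-identical copies 3, 4 and 0. For Nonrandom low, 4+3N low and their difference, the fit without copies gave 30, 15 and 3 and the first list 26, 14 and 2; without copies the 3 genes of the change of ratio became 0. None of these moved a member past the threshold other than SED1 in DESeq2. When each library was left out, the genes that passed ran from 9 to 19 in 4+3N against Nonrandom, 36 to 89 in Nonrandom low, 20 to 48 in 4+3N low and 1 to 8 in 4N against Nonrandom mRNA. The cause was not tested.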

Other observations

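The first of the lists of counts in Nonrandom footprint replicate 1, which was not used, holds 3520161 reads and differs from the second in several of the wall genes. CCW12 has 1122 CPM in the first list and 11377 CPM in the second, CWP2 394 and 1847 CPM, HSP150 1019 and 2720.5 CPM, and SED1 793 and 1759 CPM. CWP1 (299 and 241 CPM) and TIR1 (186 and 118 CPM) are higher in the first. The origin of the first list is not given in the sources used here.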
